A study of Mus musculus with 7 samples.

Results

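Glucocorticoid-responsive stress genes were examined in the mammary gland of PRA transgenic and wild-type mice. The genes were Fkbp5, Tsc22d3, Sgk1, Mt1, Mt2, Ddit4, Zbtb16, Errfi1, Cebpd and Cdkn1a, 10 of the 37074 gene names on the array, and they were chosen by name, through every probe whose gene name in the scanner files is 1 of these symbols. They have 20 probes. Of these, 16 were kept because the gland signal cleared the background in every animal of wild-type, of PRA transgenic, or of both, and each gene had at least 1 such probe. All glands came from nulliparous adult FVB females of 20 to 25 weeks, taken in diestrus, with 1 abdominal gland per animal and the lymph nodes removed. The 4 PRA transgenic animals carried 2 transgenes, a GAL-4 activator under the murine cytomegalovirus promoter and a UAS-driven gene for the A form of the progesterone receptor, so that additional receptor of this form was made under a promoter that is not specific to the mammary gland. The 3 wild-type animals were littermates without this pair, and the transgenic glands are described in the labels as preneoplastic. Each gland was labelled with Cy5 and hybridized with a Cy3-labelled universal mouse reference RNA, so a log2 ratio gives the gland over the reference for 1 probe and cannot be set against that of another probe.

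Glucocorticoids bind the glucocorticoid receptor Nr3c1, which is held by Hsp90 chaperones in the cytoplasm, moves to the nucleus and binds glucocorticoid response elements near its target genes. The same DNA element can be bound by the progesterone, mineralocorticoid and androgen receptors. In the mammary gland glucocorticoids act with prolactin on milk protein genes and on epithelial survival, and in fat and muscle they act on fuel use. Several of the 10 genes also answer to other stresses, such as metals, low oxygen or DNA damage.

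The letters of these response elements can be seen in front of some of the genes, and 4 promoters are shown: that of Sgk1 for its glucocorticoid element, those of Mt1 and Mt2 for their metal elements, and that of Ddit4 because its level, by the brightest probe of each gene, differed most between genotypes. RefSeq promoters of GRCm38.p6 were given for 8 of the 10 genes, 17 promoters in all, and those of Zbtb16 and Cebpd were not analysed here. In the 250 bases before each start, both strands were searched for the core of the glucocorticoid response element (ACANNNTGT), for the hexamer that forms its right arm (TGTTCT) and for the core of the metal response element (TGCACNC or TGCGCNC). Capitals mark these matches on either strand, and in Sgk1 a pair of hexamers overlaps the core. The lines give chr10:21993640-21993889 (plus strand) for Sgk1, chr8:94178839-94179088 (plus strand) for Mt1, chr8:94172368-94172617 (plus strand) for Mt2 and chr10:59951771-59952020 (minus strand) for Ddit4.
Sgk1: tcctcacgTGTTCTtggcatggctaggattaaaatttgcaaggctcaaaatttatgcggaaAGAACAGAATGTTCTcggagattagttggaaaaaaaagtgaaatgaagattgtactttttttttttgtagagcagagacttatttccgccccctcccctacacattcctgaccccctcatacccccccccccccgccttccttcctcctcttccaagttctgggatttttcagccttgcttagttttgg
Mt1: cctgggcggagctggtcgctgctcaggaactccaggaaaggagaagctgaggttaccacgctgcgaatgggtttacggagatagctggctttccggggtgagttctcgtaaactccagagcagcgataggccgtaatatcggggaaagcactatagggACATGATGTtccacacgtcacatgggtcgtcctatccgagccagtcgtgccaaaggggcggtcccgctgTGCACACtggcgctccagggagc
Mt2: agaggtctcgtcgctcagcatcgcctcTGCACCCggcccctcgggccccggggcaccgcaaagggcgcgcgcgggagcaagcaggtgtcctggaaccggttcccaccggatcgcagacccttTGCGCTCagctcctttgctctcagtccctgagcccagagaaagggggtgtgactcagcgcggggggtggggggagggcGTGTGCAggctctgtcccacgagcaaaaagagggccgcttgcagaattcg
Ddit4: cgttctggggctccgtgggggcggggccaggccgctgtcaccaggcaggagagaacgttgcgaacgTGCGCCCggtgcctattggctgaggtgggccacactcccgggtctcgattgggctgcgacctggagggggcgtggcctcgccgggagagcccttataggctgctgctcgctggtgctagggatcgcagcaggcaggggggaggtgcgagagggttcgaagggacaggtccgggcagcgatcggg

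In Sgk1 the glucocorticoid core lay from -186 to -178 relative to the start, with hexamers beginning at -242, -189 and -180. In Mt1 the glucocorticoid core lay from -92 to -84 and a metal core from -23 to -17. Mt2 held metal cores beginning at -223, -128 and -50, and Ddit4 held 1 from -184 to -178. Over all 32851 RefSeq promoters of this length, 5.84% held the glucocorticoid core, 16.1% the hexamer and 21.4% a metal core, and 3 or more metal cores were present in 1.26%. Of the 17 promoters of the 8 genes, 3 held the glucocorticoid core (of Sgk1 and Mt1), 4 the hexamer (of Tsc22d3 and Sgk1) and 3 a metal core (of Mt1, Mt2 and Ddit4). Sgk1 has 6 of the 17 promoters, and the promoter shown is the 1 with most matches. A match to these letters is a description of the sequence, and RNA of these genes can also start elsewhere.

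On each array, 56.7% to 66.2% of probes were well above background in Cy5, with the 3 wild-type arrays (62.7% or more) above the 4 PRA transgenic arrays (60.2% or less), and the Cy3 reference followed the same order (53.2% to 54.0% and 47.2% to 50.6%). All arrays lay on 1 slide, wild-type in row 1 and PRA transgenic in row 2, so the effects of slide row and of genotype cannot be told apart. The mean log2 ratio of the markers was 5.70 to 6.36 for white adipocytes, 2.08 to 2.81 for luminal epithelium and 2.10 to 2.49 for basal epithelium over the 7 arrays. Within these lists the markers differed, with Krt8 (luminal) at -0.63 to 0.73 and Trp63 (basal) at -0.22 to 0.28, and Elf5 (luminal) at 5.82 to 7.23. For some markers the ratio differed less between animals than the gland signal. On a log2 scale in Cy5 alone, Elf5 ran from 10.21 in wild-type replicate 1 to 13.28 in wild-type replicate 3. Its ratios there were 6.03 and 5.87, so the Cy3 reading of this probe rose with its gland signal. Mean marker ratios can therefore understate differences between animals. Krt18 (luminal) ran from 14.56 to 15.64 in Cy5 and from 0.09 to 1.33 in ratio. The mean of the skeletal muscle markers, 7 of 8 of them tested, separated the animals by another line. This mean log2 ratio was 1.98, -0.93 and 3.08 in wild-type replicates 1 to 3 and -0.78, -1.07, -0.89 and 2.81 in PRA transgenic replicates 1 to 4. Myh4 did not follow it, at 0.47 in PRA transgenic replicates 1 and 3, -0.04 in wild-type replicate 1 and -0.05 in PRA transgenic replicate 4. Myh2 was close in wild-type replicates 2 and 3, at 2.63 and 2.74. The remaining muscle markers were highest in wild-type replicates 1 and 3 and PRA transgenic replicate 4. Wild-type replicate 1 alone was high in T cell markers (1.85, against -0.58 to 0.16 elsewhere) and B cell markers (0.76, against -1.62 to -0.78). In whole-gland RNA, fewer cells of a type and less RNA per cell cannot be told apart.

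Between genotypes, 1 of the 10 genes was lower in PRA transgenic glands at an unadjusted limma p under 0.05, namely Ddit4, and 0 were higher. Over all 22503 gene names tested, 4.35% were lower and 3.6% higher at this threshold. None of the 10 passed at an adjusted p under 0.05 (limma with Benjamini-Hochberg adjustment over all 34288 probes; lowest adjusted p = 0.425), a level that 0.00444% of all gene names reached. The log2 fold change was below 0 for 8 of the 10 genes, against 47.3% of all gene names, and its median was -0.24 against 0.01. The genotypes overlapped in log2 ratio for all 10 genes, while 4.5% of gene names did not overlap with PRA transgenic lower and 4.59% with PRA transgenic higher. In Cy5 alone, Ddit4 was again the 1 gene under 0.05, against 4.54% of gene names lower.

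**Figure D1:**
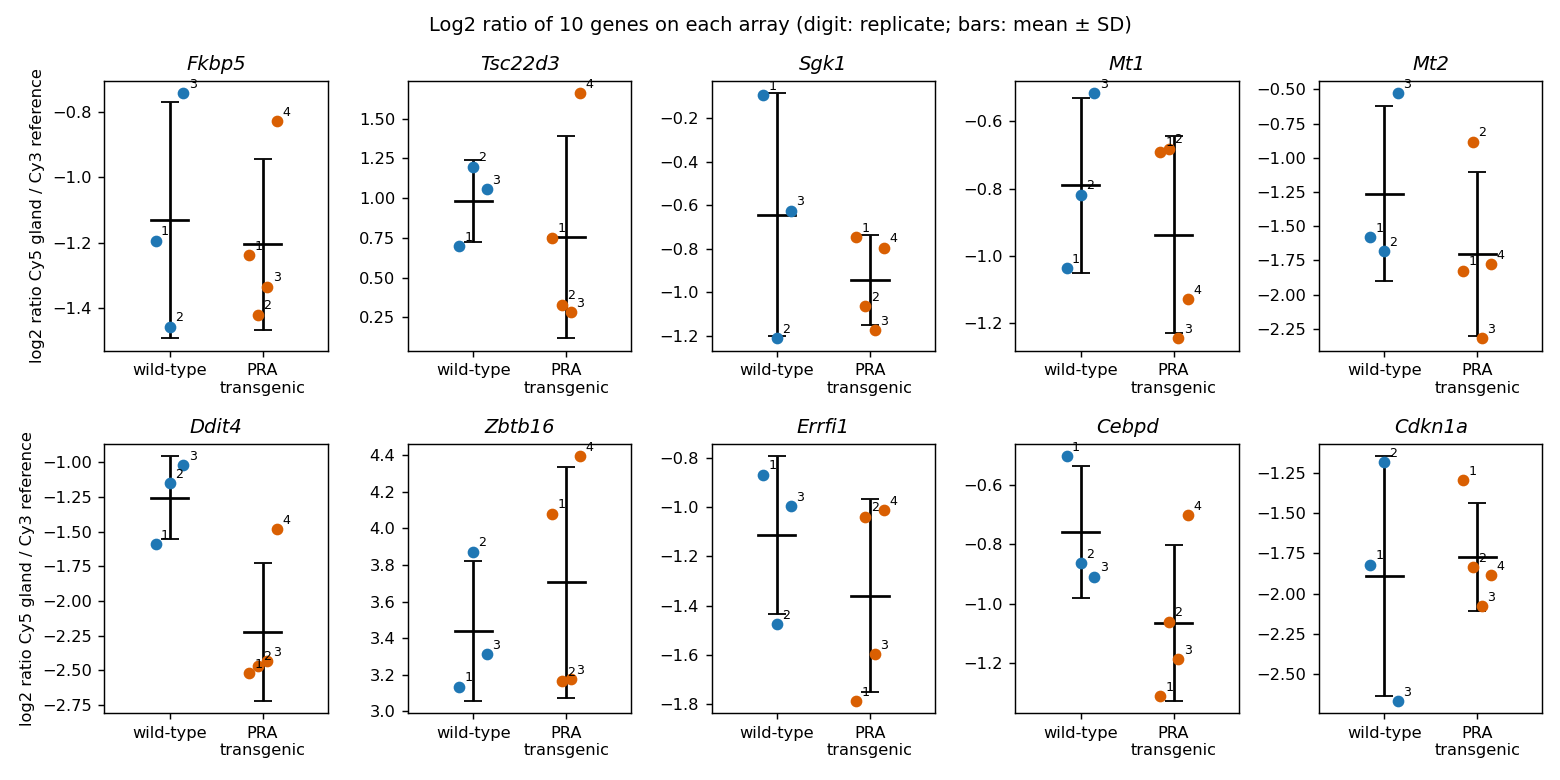
Log2 ratio of Cy5 (gland) to Cy3 (reference) for the brightest probe of each of the 10 genes, 1 point per animal with its replicate number, and bars for the mean ± SD of 3 wild-type and 4 PRA transgenic animals; each panel has its own vertical axis. In the Ddit4 panel PRA transgenic replicates 1 to 3 sit between -2.52 and -2.43, below all wild-type animals, while replicate 4 at -1.48 lies within the wild-type range.

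Ddit4 (REDD1), an inhibitor of mTORC1 induced by glucocorticoids, low oxygen and energy stress, had the largest difference of the 10 genes when each was taken by its brightest probe. Its single probe, A_51_P245796 (chromosome 10 of mm9, 59412486 to 59412545), had log2 ratios of -1.59, -1.15 and -1.02 in wild-type replicates 1 to 3 and of -2.52, -2.47, -2.43 and -1.48 in PRA transgenic replicates 1 to 4. PRA transgenic replicates 1 to 3 were lower than every wild-type animal, and replicate 4 was higher than wild-type replicate 1, so the groups overlapped in this pair. The mean fell from -1.25 ± 0.30 (SD, n = 3) to -2.23 ± 0.50 (SD, n = 4), a log2 fold change of -0.97 (standard error 0.29, limma unadjusted p = 0.0118, adjusted p = 0.425), or 1.96-fold lower.

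In Cy5 alone, on a log2 scale after each array was set to a common 75th percentile, Ddit4 stood at 12.11, 12.43 and 12.61 in wild-type and at 11.23, 11.19, 11.22 and 12.08 in PRA transgenic animals. Here the genotypes did not overlap, though PRA transgenic replicate 4 was close to wild-type replicate 1. The Cy5 log2 fold change was -0.95 (standard error 0.25, limma unadjusted p = 0.00631, adjusted p = 0.399), and 4.72% of all gene names were lower without overlap in Cy5. The Cy3 reference for this probe changed by 0.03 on the log2 scale.

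The skeletal muscle markers moved with part of the Ddit4 values. PRA transgenic replicate 4, the highest of its group for Ddit4, was the 1 PRA transgenic animal with high muscle markers, whereas wild-type replicate 2, low in muscle markers, had a Ddit4 ratio of -1.15. Wild-type replicate 1, with a muscle marker mean of 1.98, had the lowest Ddit4 ratio of the wild-type animals, -1.59. With the muscle marker mean as a covariate, an alternative added after the data were seen, the log2 fold change was -0.78 (limma unadjusted p = 0.0261). Among the 4 arrays low in muscle markers, 1 wild-type and 3 PRA transgenic, it was -1.32, a value given with no test because it rests on 1 wild-type animal. Of all gene names, 3.41% were lower at this threshold with the covariate. Over the 19 alternatives with more than 1 array in each genotype, the log2 fold change of Ddit4 ranged from -1.22 to -0.78, with an unadjusted p of at most 0.0444. Several of these alternatives keep the same ratios, and so the same log2 fold change, and all draw on the same animals. The study lists Ddit4 among its lower genes on these same arrays. Earlier work had found the genes of that list to be regulated by the progesterone receptor in human breast cancer cells. The direction on the list comes from these arrays and is not independent evidence.

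**Figure D2:**
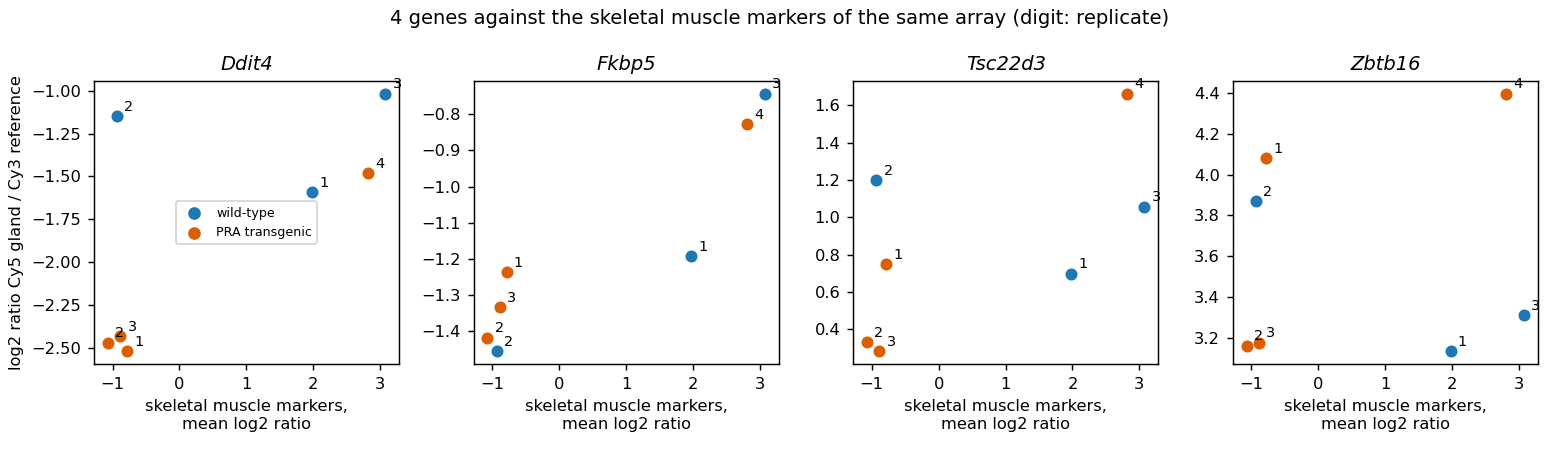
Log2 ratio of Ddit4, Fkbp5, Tsc22d3 and Zbtb16 (vertical axes) against the mean log2 ratio of the skeletal muscle markers on the same array (horizontal axes), 1 point per animal with its replicate number. Wild-type replicates 1 and 3 and PRA transgenic replicate 4 lie at 1.98 or above on the horizontal axes, and the other 4 animals at -0.78 or below.

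Fkbp5 encodes a co-chaperone of the receptor that lowers its affinity for hormone and is itself induced by the receptor, a feedback loop that makes it a common readout of glucocorticoid action. Its brightest probe, A_55_P1952379, had log2 ratios of -1.19, -1.46 and -0.74 in wild-type replicates 1 to 3 and of -1.24, -1.42, -1.33 and -0.83 in PRA transgenic replicates 1 to 4. The ranges of the genotypes were nearly the same, with the highest value of each group in wild-type replicate 3 and PRA transgenic replicate 4. The log2 fold change of -0.07 (standard error 0.22, limma unadjusted p = 0.745) was smaller than its standard error, and turned to 0.12 without wild-type replicate 3 and to 0.13 with the muscle marker covariate. A second, dimmer probe, A_52_P481493, changed by -0.26 (standard error 0.30), and the third was well above background in 1 of 3 wild-type and 1 of 4 PRA transgenic animals and was not tested.

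The genes whose deviations from the genotype means were most like those of Fkbp5 over the 7 arrays, out of 22469 ranked, were Gm35107 (r = 0.994), Lmod3 (0.991), Myl3 (0.991), NAP092744-001 (0.989) and Npm2 (0.988). Lmod3 and Myl3 encode proteins of the muscle sarcomere. Lmod3 had log2 ratios of -0.02, -0.60 and 1.86 in wild-type and of -0.14, -0.52, -0.40 and 1.41 in PRA transgenic animals, highest in the same animals as Fkbp5, wild-type replicate 3 and PRA transgenic replicate 4. By this measure Ddit4 was at 0.68, Tsc22d3 at 0.59 and Nr3c1 at -0.34. These are descriptions over 7 arrays that share a slide and a reference, and the part of muscle RNA in the Fkbp5 values was not tested beyond the fits given.

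Tsc22d3 (GILZ), an anti-inflammatory leucine zipper protein and direct receptor target, had log2 ratios of 0.70, 1.20 and 1.06 in wild-type replicates 1 to 3 and of 0.75, 0.33, 0.28 and 1.66 in PRA transgenic replicates 1 to 4. PRA transgenic replicates 2 and 3 were the lowest animals and replicate 4 the highest of all 7. Between genotypes the log2 fold change was -0.23 (standard error 0.35, limma unadjusted p = 0.529) and -0.38 (standard error 0.33) for the second probe kept. For the brightest probe it was -0.53 (limma unadjusted p = 0.0378) without PRA transgenic replicate 4 and -0.07 without PRA transgenic replicate 3. The third probe was well above background on 0 arrays.

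Zbtb16 (PLZF), a zinc finger repressor strongly induced by glucocorticoids and progestins, was above the reference on every array. The log2 ratios of its brightest probe, A_55_P2024155, were 3.14, 3.87 and 3.31 in wild-type and 4.08, 3.16, 3.18 and 4.39 in PRA transgenic animals. PRA transgenic replicates 1 and 4 were higher than every wild-type animal, and replicates 2 and 3 lay within the wild-type range. The genotype means differed by a log2 fold change of 0.26 (standard error 0.36, limma unadjusted p = 0.487), and 0.03 without PRA transgenic replicate 4.

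The second Zbtb16 probe, A_66_P119534, spans positions 48473399 to 48525415 of chromosome 9 of mm9. Its log2 ratios were 2.95, 2.06 and 1.66 in wild-type and 3.64, 2.84, 2.56 and 4.20 in PRA transgenic animals, overlapping through wild-type replicate 1. Its difference between genotypes was 1.09 on the log2 scale (standard error 0.47, limma unadjusted p = 0.0512, adjusted p = 0.555). For this probe the Cy3 reference was well above background on 0 arrays, and in Cy5 alone the change was 0.72 (standard error 0.45, limma unadjusted p = 0.150). The Cy5 change of the brightest Zbtb16 probe was 0.34 (standard error 0.47). The difference between the probes was not tested.

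Cebpd, a transcription factor of early adipocyte differentiation and the acute phase response, had log2 ratios of -0.50, -0.86 and -0.91 in wild-type and of -1.31, -1.06, -1.19 and -0.70 in PRA transgenic animals. PRA transgenic replicates 1 to 3 were lower than every wild-type animal, and replicate 4 was above wild-type replicates 2 and 3, an arrangement close to that of Ddit4 and with a smaller gap. This gave a log2 fold change of -0.31 (standard error 0.19, limma unadjusted p = 0.140). Without PRA transgenic replicate 4 it was -0.43 (limma unadjusted p = 0.0357), and without wild-type replicate 1 it was -0.18.

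When PRA transgenic replicate 4 was left out, 3 of the 10 genes were lower at an unadjusted limma p under 0.05, Ddit4, Tsc22d3 and Cebpd, against 5.41% of all gene names. PRA transgenic replicate 4 was the 1 PRA transgenic animal high in muscle markers and also the highest of its group in fibroblast markers (3.33, against 2.84 to 2.91). In fibroblast markers it lay within the wild-type range of 2.86 to 3.37. It was also the highest of all animals in macrophage markers, at 3.27, where wild-type ran from 2.33 to 2.71. With the muscle marker covariate the log2 fold change was -0.02 (limma unadjusted p = 0.947) for Tsc22d3 and -0.20 (limma unadjusted p = 0.316) for Cebpd. The part of fibroblast or macrophage RNA in the differences was not tested.

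**Figure D3:**
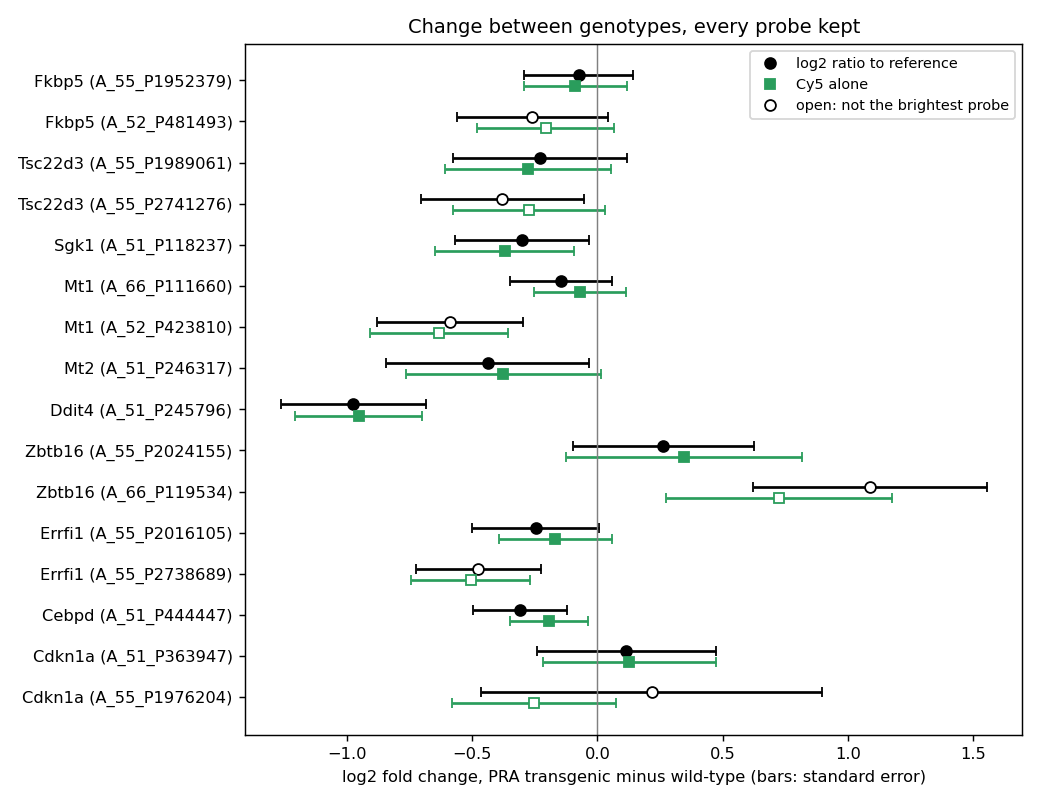
Log2 fold change of PRA transgenic over wild-type glands (horizontal axis, bars for the standard error) for each of the 16 probes kept, from the log2 ratio (circles) and from Cy5 alone (squares); filled symbols are the brightest probe of a gene. Ddit4 lies farthest to the left at -0.97, and the second Zbtb16 probe farthest to the right at 1.09.

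Sgk1, a kinase that promotes sodium uptake and cell survival and is induced by glucocorticoids and mineralocorticoids, had log2 ratios of -0.10, -1.21 and -0.63 in wild-type replicates 1 to 3 and of -0.75, -1.06, -1.17 and -0.79 in PRA transgenic replicates 1 to 4. The wild-type animals held both the highest and the lowest value, and the transgenic animals lay between them. Between the means the log2 fold change was -0.30 (standard error 0.27, limma unadjusted p = 0.295). It was -0.03 without wild-type replicate 1, the animal high in lymphocyte markers, and -0.58 (limma unadjusted p = 0.0346) without wild-type replicate 2, a setting in which 3.47% of all gene names were lower. A second Sgk1 probe was well above background in 1 PRA transgenic animal only, replicate 1, with a log2 ratio of 1.86 there, and was not tested.

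Errfi1 (MIG6), a feedback inhibitor of EGF receptor signaling, had log2 ratios of -0.87, -1.48 and -0.99 in wild-type and of -1.79, -1.04, -1.60 and -1.01 in PRA transgenic animals. Each genotype held animals near -1 and animals near the low end, so the groups overlapped. The difference in means was -0.25 on the log2 scale (standard error 0.25, limma unadjusted p = 0.362) and -0.47 (standard error 0.25, limma unadjusted p = 0.0964) for the dimmer probe. For the brightest probe it was -0.10 without PRA transgenic replicate 1 and -0.43 without wild-type replicate 2.

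Mt1 and Mt2 encode metallothioneins, small proteins that bind zinc and copper and are induced by metals as well as by glucocorticoids. Mt1 had log2 ratios of -1.04, -0.82 and -0.52 in wild-type and of -0.69, -0.68, -1.24 and -1.13 in PRA transgenic animals. Mt2 had log2 ratios of -1.58, -1.68 and -0.53 in wild-type and of -1.83, -0.88, -2.32 and -1.78 in PRA transgenic animals. Within each genotype the highest animal for Mt2, wild-type replicate 3 or PRA transgenic replicate 2, was also the highest for Mt1, and PRA transgenic replicate 3 was the lowest of all 7 for both. The log2 fold change was -0.15 (standard error 0.20, limma unadjusted p = 0.497) for Mt1 and -0.44 (standard error 0.40, limma unadjusted p = 0.314) for Mt2. Without wild-type replicate 3 these were -0.01 and -0.07, and without PRA transgenic replicate 2 that of Mt2 was -0.71. The dimmer Mt1 probe changed by -0.59 (standard error 0.29, limma unadjusted p = 0.0838, adjusted p = 0.610).

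Cdkn1a (p21), an inhibitor of cyclin-dependent kinases that answers to p53 and to glucocorticoids, had log2 ratios of -1.82, -1.18 and -2.67 in wild-type and of -1.30, -1.84, -2.08 and -1.89 in PRA transgenic animals. The wild-type animals spread over a wider range than the transgenic ones and enclosed all of them. Its mean log2 fold change was 0.12 (standard error 0.36, limma unadjusted p = 0.754), and -0.27 without wild-type replicate 3, the lowest animal. A second probe was well above background in 3 of 3 wild-type and 0 of 4 PRA transgenic animals, and the level at which the arrays detect signal allowed no bound on its fold. It was kept through the wild-type arrays alone, on which more probes of all kinds cleared the background. Its log2 fold change was 0.22 (standard error 0.68, limma unadjusted p = 0.759). In Cy5 alone its highest value was that of PRA transgenic replicate 1, 3.91, against 3.15 to 3.70 in wild-type. The third probe was not kept.

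Whether the genes varied together from animal to animal was examined over all 45 pairs. Pearson r was above 0 for 32 of the 45 pairs, with a median of 0.17, and of 0.10 after the genotype means were subtracted. The highest was that of the metallothioneins, r = 0.80 (two-sided exact permutation p = 0.0274; Spearman rho = 0.75, exact permutation p = 0.0663), and it was 0.65 without the 2 arrays farthest from the median of Mt1. Errfi1 and Cebpd followed with r = 0.79 (exact permutation p = 0.0419; rho = 0.82, exact permutation p = 0.0341), which was 0.38 without 2 arrays. Tsc22d3 and Zbtb16 had r = 0.77 (exact permutation p = 0.0466; rho = 0.75, exact permutation p = 0.0663), which was 0.45 without 2 arrays. Leaving out the arrays farthest from the median narrows the range, which can itself lower r. After the genotype means were subtracted, r over all arrays was 0.78 for Mt1 and Mt2, 0.76 for Errfi1 and Cebpd and 0.90 for Tsc22d3 and Zbtb16.

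The 3 lowest pairs all held Cdkn1a. Its r was -0.67 with Fkbp5 (exact permutation p = 0.0996; rho = -0.61, exact permutation p = 0.167), and -0.18 without 2 arrays. With Errfi1 it was -0.54 (exact permutation p = 0.229; rho = -0.32, exact permutation p = 0.498), and -0.67 without 2 arrays. With Mt2 it was -0.49 (exact permutation p = 0.262; rho = -0.18, exact permutation p = 0.713), which turned to 0.50 without 2 arrays. After Benjamini-Hochberg adjustment over the 45 pairs 0 pairs passed and 3 had an unadjusted exact permutation p of r under 0.05. The adjusted p was 0.699 for the 3 highest pairs and 0.724 for the 3 lowest.

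**Figure D4:**
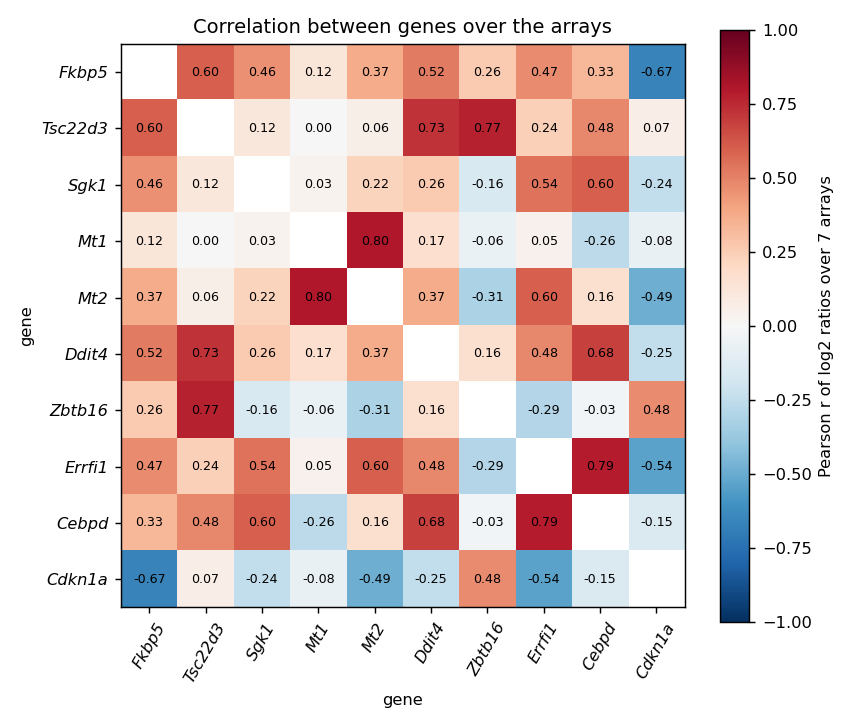
Pearson r of the log2 ratios over the 7 arrays for each pair of the 10 genes, from -1 (blue) to 1 (red), with r printed in each cell. Mt1 and Mt2 have the highest r, 0.80, and the row of Cdkn1a holds the 3 lowest, down to -0.67.

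Upstream of the 10 genes, the receptors and the enzymes that set local hormone levels were measured from a list made by role. Nr3c1, the glucocorticoid receptor, had log2 ratios of 0.71, 1.17 and 0.28 in wild-type and of 0.97, 0.40, 0.52 and 0.85 in PRA transgenic animals. The transgenic animals lay inside the wild-type range, with a log2 fold change of -0.04 (standard error 0.24, limma unadjusted p = 0.889). Nr3c2, the mineralocorticoid receptor, which also binds corticosterone, had a log2 fold change of 0.15 at its brightest probe (standard error 0.16, limma unadjusted p = 0.376). The other probes kept for it disagreed, at 0.87 (A_66_P132841; standard error 0.35, limma unadjusted p = 0.0417, adjusted p = 0.534), where all transgenic animals were above all wild-type animals, and at -0.24 (A_51_P377914; standard error 0.14), and for both the Cy3 reference was well above background on 0 arrays.

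Hsd11b1 regenerates active corticosterone inside cells and is abundant in fat and liver. Its log2 ratios were 5.86, 4.77 and 5.91 in wild-type and 6.46, 6.28, 6.38 and 5.27 in PRA transgenic animals, with PRA transgenic replicates 1 to 3 above every wild-type animal and replicate 4 below 2 of them. Its log2 fold change was 0.58 (standard error 0.39, limma unadjusted p = 0.178). It was 0.55 (limma unadjusted p = 0.268) with the muscle marker covariate, and over 19 alternatives it ranged from 0.21 to 0.86, with an unadjusted p under 0.05 in 2. Hsd11b2, the enzyme that inactivates corticosterone, had a gland signal well above background on 0 arrays and was not tested in the reported fit. With no filter its log2 fold change was -0.43, a value taken from signals near the background.

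Of the 94 other genes of the pathway that were listed by role, 90 were tested, and 6 were lower and 3 higher at an unadjusted p under 0.05, with 0 at an adjusted p under 0.05 (limma), against 4.35% and 3.6% of all gene names in the 2 directions. Their median log2 fold change was -0.02, and 51 of the 90 were below 0. Among the 9 receptor chaperones, the 11 coregulators, the 7 genes of metal and zinc homeostasis, the 10 p53 targets, the 9 genes of mTORC1 and the Sgk kinases and the 6 receptors and prereceptor enzymes, 0 genes passed in either direction. Their list medians lay between -0.04 and 0.08. The 26 other glucocorticoid-induced genes had 4 lower and 3 higher with a median of -0.02, and the 12 genes of hypoxia and the integrated stress response had 2 lower, 0 higher and a median of -0.25. When single animals were left out, the 9 genes became 5 at the fewest (PRA transgenic replicate 2 removed) and 15 at the most (PRA transgenic replicate 4 removed). Over all gene names the share in either direction also moved, to 6.64% and 11.3% in these settings, against 7.95% with all animals.

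Nfil3, a leucine zipper repressor linked to the circadian clock and to interleukin 3, was the listed glucocorticoid-induced gene with the largest change and ran opposite to Ddit4. Its log2 ratios were -1.82, -1.59 and -2.28 in wild-type and -0.40, -0.79, -0.70 and -0.93 in PRA transgenic animals. All transgenic animals were higher than all wild-type animals. Its change was 1.20 on the log2 scale (standard error 0.20, limma unadjusted p = 5.63e-04, adjusted p = 0.272), the 2 probes kept gave 1.20 and 1.22, and the unadjusted p was under 0.05 in 19 of 19 alternatives. Lpin1, a phosphatidate phosphatase of fat synthesis, rose by 0.50 (standard error 0.17, limma unadjusted p = 0.0182), with 0.42 to 1.01 over its 4 probes, and had an unadjusted p under 0.05 in 16 of 19 alternatives. Its dimmer probes overlapped between genotypes, with a limma unadjusted p of 0.0757 to 0.116. For the Lpin1 probe at 1.01 the Cy3 reference was well above background on 1 array. Cd163, a scavenger receptor of macrophages, rose by 0.47 (standard error 0.17, limma unadjusted p = 0.0276) in the ratio of its brightest probe, while in Cy5 alone its change was 0.02. The second Cd163 probe kept changed by 0.01, and the unadjusted p of the brightest was under 0.05 in 9 of 18 alternatives.

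Pdk4, a kinase that restrains pyruvate dehydrogenase and spares glucose, was lower in all transgenic animals. Its log2 ratios were 4.94, 4.92 and 5.22 in wild-type and 4.40, 4.02, 3.98 and 4.57 in PRA transgenic animals. It fell by 0.78 on the log2 scale (standard error 0.19, limma unadjusted p = 0.00382, adjusted p = 0.379), and the unadjusted p was under 0.05 in 19 of 19 alternatives; like Ddit4 it is on the study's list from these arrays. Adm, which encodes the vasodilator peptide adrenomedullin and is induced by low oxygen, fell by 0.74 (standard error 0.17, limma unadjusted p = 0.00335), without overlap and with an unadjusted p under 0.05 in 19 of 19 alternatives. Sesn2, which like Ddit4 restrains mTORC1 under stress, fell by 0.48 (standard error 0.16, limma unadjusted p = 0.0182), also without overlap and with an unadjusted p under 0.05 in 16 of 19 alternatives.

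The remaining 3 of the 9 overlapped between genotypes. All 9 were picked by an unadjusted p under 0.05 on these arrays, so lack of overlap in the others is not a separate result. Over all gene names, 4.5% did not overlap with PRA transgenic lower and 4.59% with PRA transgenic higher. Gadd45g, a stress gene of growth arrest, fell by 0.65 (limma unadjusted p = 0.0298). Dusp1, a phosphatase of MAP kinases, fell by 0.66 (limma unadjusted p = 0.0329), and Per1, a repressor of the circadian clock, by 0.57 (limma unadjusted p = 0.0498). With the muscle marker covariate their log2 fold changes were -0.48, -0.62 and -0.37, each with an unadjusted limma p above 0.05, and that of Cd163 was 0.41 (limma unadjusted p = 0.0724).

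**Figure D5:**
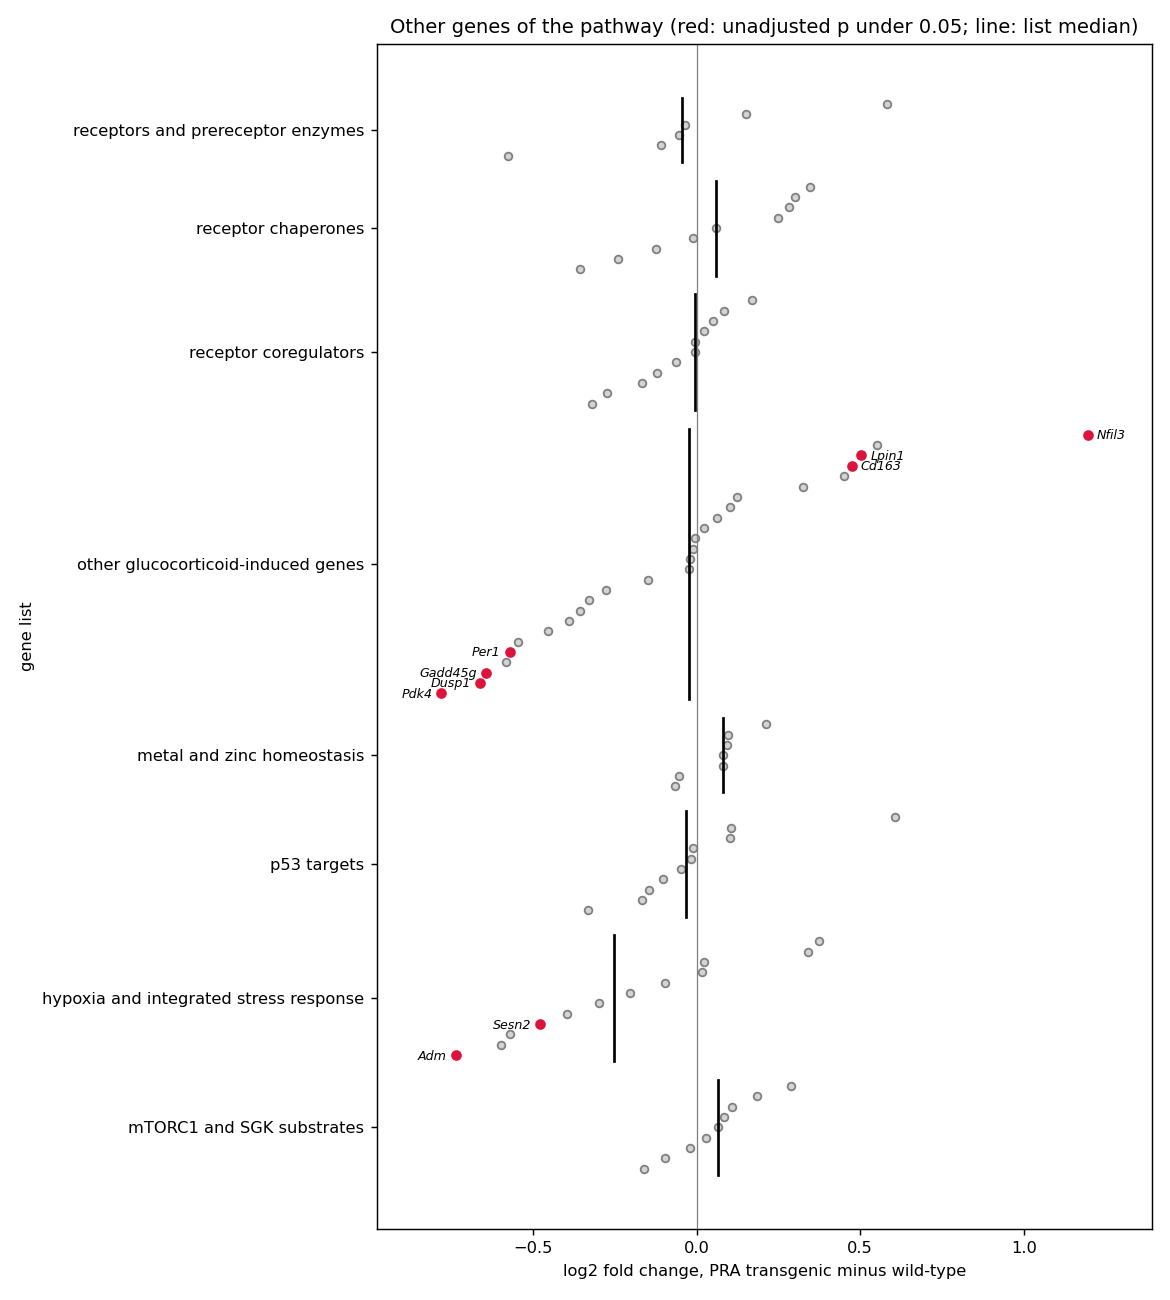
Log2 fold change of PRA transgenic over wild-type glands (horizontal axis) for the 90 other pathway genes tested, 1 point per gene, grouped by list with a line at the list median. Red points, named, have an unadjusted limma p under 0.05, 6 lower and 3 higher, with Nfil3 at 1.20 and Pdk4 at -0.78 as the extremes.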

How the data were processed

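A gland from each of 7 mice, 3 wild-type and 4 PRA transgenic, was hybridized to an array with 2 dyes. The labels gave the group and number of each animal. For each array the authors deposited scanner files from Agilent Feature Extraction 12.0, in which the processed intensity of each dye had its background subtracted and was normalized between dyes. A table of log2 ratios that the authors deposited as well was found to hold the ratio of these intensities after each probe's median was subtracted.

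Control spots and 1074 outlier spots were left out, spots of a probe were averaged, and log2(Cy5/Cy3) was taken. No spot was saturated. Of 56605 probes, 34288 whose Cy5 signal cleared the background on every array of 1 or both genotypes were fitted in limma 3.58.1 (lmFit, eBayes; R 4.3.3), with p-values adjusted by Benjamini-Hochberg over these probes and the steps tested on simulated data. The brightest kept probe in Cy5 stood for a gene. For Cy5 alone, each array was set to a common 75th percentile. Names and positions (mm9) are those of the files. The number of arrays limits the precision. A limma p-value sets the difference between genotypes against the spread between these animals, moderated over all probes. It cannot tell that difference from one between slide rows.

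The genes, the pathway and marker lists, and the tests were chosen with earlier results of these data known. Named beside the 10 genes are Nr3c1, Nr3c2, Hsd11b1 and Hsd11b2, listed genes with an unadjusted p under 0.05, the 3 highest and 3 lowest pairs by r, and the 5 genes most like Fkbp5. Marker lists of T cells, B cells, macrophages, endothelium, fibroblasts, white and brown adipocytes, luminal and basal epithelium and skeletal muscle were averaged. Mean log2 ratios were 2.07 to 3.27 for macrophages, 4.97 to 5.76 for endothelium, 2.84 to 3.37 for fibroblasts and 3.43 to 4.57 for brown adipocytes. In Cy5 alone Ucp1, a brown adipocyte marker, ran from 7.59 in PRA transgenic replicate 4 to 12.61 in PRA transgenic replicate 2. Its log2 ratios in these animals were 4.90 and 5.59.

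The alternatives were normexp (offset 50) with loess, the deposited log2 table, no filter, a filter on both channels, Cy5 alone, quantile normalization, an intensity trend, array weights, the methods' t-test, the replicate number as a block, the median over probes, each array left out, and 2 muscle settings added later. The deposited table, both filter settings, the intensity trend and the t-test use the ratios of the reported fit. For the same probe they give the same log2 fold change, so only the p-value can differ. No alternative brings in further animals.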

Additional observations from a re-analysis of the deposited data

Results flagged for a closer look

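In PRA transgenic animals, replicate 4 lay apart from the other 3 in Ddit4, at a log2 ratio of -1.48 against -2.52 to -2.43. The gap was 0.916 of the range of the group, above Dixon's critical value for 4 samples. The same animal lay apart in the skeletal muscle markers (2.81 against -1.07 to -0.78, 0.926 of the range) and in the fibroblast markers (3.33 against 2.84 to 2.91, 0.868 of the range). For both it lay within the wild-type range, -0.93 to 3.08 for muscle and 2.86 to 3.37 for fibroblasts. In all, 20 sets of 4 values were examined and 3 lay apart, where chance flags about 1 in 20 groups. Whether the muscle and fibroblast RNA bears on the Ddit4 value of this animal was not tested beyond the fits with the muscle markers.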

How the results depend on the processing

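The direction of Ddit4 and its unadjusted p under 0.05 held in all 19 alternatives with more than 1 array in each genotype, and 0 of the 10 genes passed after adjustment in any setting, with a lowest adjusted p of 0.425 in the comparison as reported. In several of these alternatives, such as the deposited log2 table and the median over probes, the Ddit4 log2 fold change was fixed at -0.97, because the same ratios of its single probe were used. With 1 slide in the study, no slide block could be fitted. No pairing of the animals by replicate number was seen (correlations of deviations 0.10, -0.30 and 0.04; 1 wild-type array correlated best with its own number). The labels do not say whether the numbers mark pairs. With the replicate block, which leaves PRA transgenic replicate 4 without a partner, the median of the 10 log2 fold changes was -0.36 and 14 of the listed pathway genes had an unadjusted p under 0.05, against -0.24 and 9. With array weights these were -0.34 and 15, with the median over probes the median was -0.31, and with the muscle marker covariate it was -0.13. Of all gene names, 9.13% passed in either direction with the replicate block and 10.6% with array weights, against 7.95% in the comparison as reported. When single animals were left out, the median ran from -0.36 (PRA transgenic replicate 4 removed) to -0.12 (PRA transgenic replicate 3 removed), the pathway genes from 5 to 15, the members of the 10 with an unadjusted p under 0.05 from 1 to 3, and those passing after adjustment stayed at 0. The share of all gene names in either direction was 6.64% without PRA transgenic replicate 2 and 11.3% without PRA transgenic replicate 4. An unadjusted p under 0.05 was reached for Sgk1 when wild-type replicate 2 was removed, and for Tsc22d3 and Cebpd when PRA transgenic replicate 4 was removed, while other single animals moved these values toward 0.

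The sign turned for Fkbp5 without wild-type replicate 3 (0.12; range -0.24 to 0.12 over animals left out) and with the muscle covariate (0.13). For Cdkn1a it turned without wild-type replicate 3 (-0.27; range -0.27 to 0.47), without PRA transgenic replicate 1 (-0.04) and with the covariate (-0.12). In the 4 arrays low in muscle markers, with 1 wild-type array and so given as values only, it turned for Fkbp5 (0.13), Sgk1 (0.22), Mt2 (0.0076), Zbtb16 (-0.40), Errfi1 (0.0017) and Cdkn1a (-0.55). The correlation of Mt2 and Cdkn1a turned to 0.50 without 2 arrays. The cause of these shifts was not tested.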
